A study of Schizosaccharomyces pombe with 14 samples.

Results

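Wild-type fission yeast (Schizosaccharomyces pombe) that had spent 8 h without phosphate was compared with the same strain after 4 h, gene by gene. Both groups are labelled as WT, mating type h-, kept in a synthetic medium that lacks phosphate, ePMGT(-PO4). Neither carries a listed deletion or drug, so time without phosphate is the only labelled difference between them. The members were taken by label alone and are 6 of the 42 libraries of the series, 3 for each time, or 2 of its 14 samples. Of 6988 genes counted, 6521 passed a filter on low counts and were tested. The other samples are the wild type at 0 h in rich medium (YES) and at 12, 24, 36 and 48 h without phosphate, and an h+ strain with maf1 replaced by a resistance marker, maf1[delta]::natMX, at all 7 times. They serve here only to show what came before and after the step and whether the deletion strain took the same step. The study's question is the response to lasting loss of phosphate and the part played in it by Maf1, a repressor of RNA polymerase III. Its design text speaks of 3 replicate experiments per sample without saying whether each was a culture of its own, so p-values measure only the spread between these libraries.

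Phosphate is needed for nucleic acids, phospholipids and ATP, and most of a growing cell's RNA phosphate is held in ribosomes. When phosphate runs short, fission yeast switches on genes for secreted phosphatases and for carriers of phosphate and glycerophosphodiesters, under the transcription factor Pho7. Slow growth on poor nutrients is known to lower the transcription of ribosomal protein genes, which are controlled by TOR signalling, and nutrient loss also opens the way to mating, in which h- cells secrete the lipopeptide pheromone M-factor and read the P-factor of h+ cells.

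The 8 h libraries held 19541544, 14058455 and 20622551 counts and the 4 h libraries 21283290, 18232580 and 19132167. Values below are CPM, a gene's counts scaled to a common library size. Among mating-type genes, M-factor gene mfm2 followed the h- label, at 641 ± 50.3 CPM at 8 h and 296 ± 28.3 CPM at 4 h (SD, n = 3 each; the same holds for every ± after a CPM mean below). The P-factor gene map2 stood at 9.51 ± 0.707 and 8.10 ± 0.742 CPM at the same times, and the M-factor receptor gene map3 at 30.5 ± 1.61 and 27.4 ± 0.202 CPM. In the h+ deletion, mfm2 averaged 9.51 CPM at 8 h and 7.99 CPM at 4 h, map2 28.4 and 5.58 CPM, and map3 50.8 and 36.9 CPM. At 4 h map2 was thus lower in the h+ strain than in the wild type and did not follow the label. The transcript of maf1 was present in every library, with 106, 100.1 and 100.2 CPM at 8 h, against 82.3, 79.6 and 73.6 CPM at 4 h, a log2 change of 0.38 that is under the 2-fold minimum. No batch is named in the labels.

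The largest group to fall between 4 and 8 h was that of the ribosomal protein genes. The steepest rises of named coding genes were those of the M-factor genes mfm1 and mfm3 and of the purine-breakdown gene xan1. More genes were called higher than lower. Genes were called where edgeR's quasi-likelihood test gave a Benjamini-Hochberg adjusted p, over all tested genes, below 0.05 along with a change of 2-fold or more. By that rule 405 genes were higher at 8 h (6.21% of those tested) and 214 were lower (3.28%), together 9.49%. Most changes were moderate: 250 of the higher and 162 of the lower genes moved by less than 2.83-fold, and 12 and 5 genes moved by 8-fold or more. Over all tested genes the median log2 change was 0.01, and 90% lay between -0.92 and 1.17. The libraries were tight enough that the 2 groups did not overlap for 76.2% of tested genes, and 399 of the 405 higher and 213 of the 214 lower genes were without overlap. In RNA from whole cultures, a change in the number of cells that express a gene and a change in its RNA per cell cannot be told apart.

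**Figure D1:**
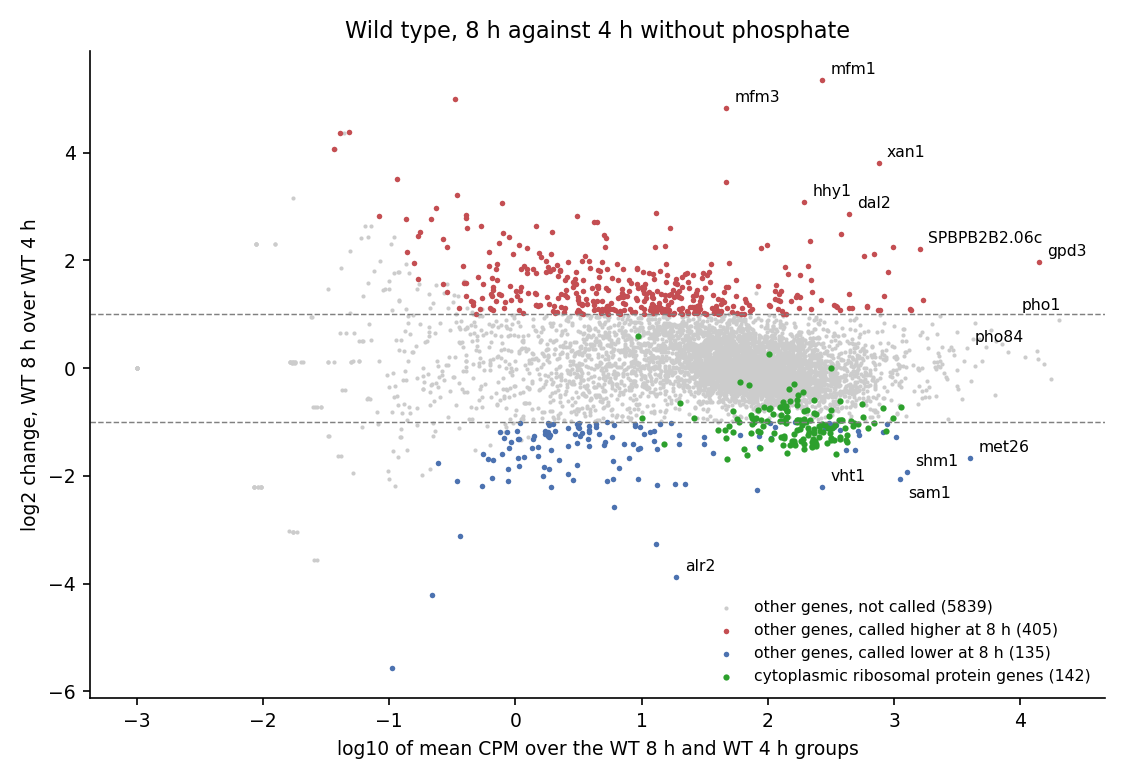
Log2 change at 8 h over 4 h in the wild type (vertical axis) against the log10 of the mean CPM (horizontal axis) for every tested gene, with dashed lines at 2-fold. The 142 ribosomal protein genes (green) form 1 cloud with a median log2 change of -1.04, while mfm1, mfm3 and xan1 lie above all other well-expressed genes and alr2 lies lowest among them.

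Genes for cytoplasmic ribosomal proteins made up the largest group that fell. All 142 listed genes passed the filter, 79 of them were called lower (55.6%, against 3.28% of all genes) and none was called higher, with a median log2 change of -1.04. Both subunits took part: 44 of 85 genes for the 60S subunit were lower (median -1.01) and 35 of 57 for the 40S subunit (median -1.10). Of the 7 rpp genes for the acidic proteins of the ribosome stalk, counted with the large subunit, 5 were lower (median -1.29). At an adjusted p under 0.05 with no fold minimum, 139 of the 142 genes were lower (97.9%, against 34.1% of all genes). By the same measure 2 were higher (1.41%, against 35.9%). The near-identical copies of many ribosomal protein genes may have split their reads, since how reads with several matches were counted is not given in the sources used here.

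The largest fall of the list was that of rpl1002, which encodes protein L10 of the 60S subunit and had 19.3, 20.9 and 26.9 CPM at 8 h, against 75.1, 63.1 and 78.1 CPM at 4 h. Its log2 change was -1.68 ± 0.11 (SE; adjusted p = 9.26e-16), and every 8 h library lay far below every 4 h library. For rps1401, a gene for protein S14 of the 40S subunit, the values were 32.6, 31.6 and 35.9 CPM at 8 h, against 97.4, 103 and 109 CPM at 4 h (log2 change -1.62). A gene for protein L8, rpl801, followed with 158, 164 and 199 CPM at 8 h, against 525, 501 and 553 CPM at 4 h (log2 change -1.60). The members outside the general fall were few. The gene rpl1603 had 11.4 ± 1.47 CPM at 8 h and 7.49 ± 1.48 CPM at 4 h (log2 change 0.59), rpl102 had 111 ± 5.31 CPM at 8 h and 92.6 ± 6.90 CPM at 4 h (log2 change 0.26), and rpl35b stood at 317 ± 10.4 CPM at 8 h and 317 ± 4.49 CPM at 4 h.

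As a share of each library, the 142 genes took 2.064%, 2.061% and 2.305% of all counts at 8 h, against 4.41%, 4.17% and 4.70% at 4 h. The mean share was 2.14% ± 0.140 at 8 h and 4.43% ± 0.265 at 4 h (SD, n = 3 each), a ratio of 0.484, with an exact two-sided permutation p of 0.1, the lowest that 3 against 3 libraries allow. Along the whole wild-type series, the share was 12.4% at 0 h, 4.43% at 4 h, 2.14% at 8 h, 3.85% at 12 h, 6.77% at 24 h, 7.54% at 36 h and 9.03% at 48 h. The 8 h libraries thus hold the lowest share of the 7 times, and the values at 12 h lie above all those at 8 h.

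**Figure D2:**
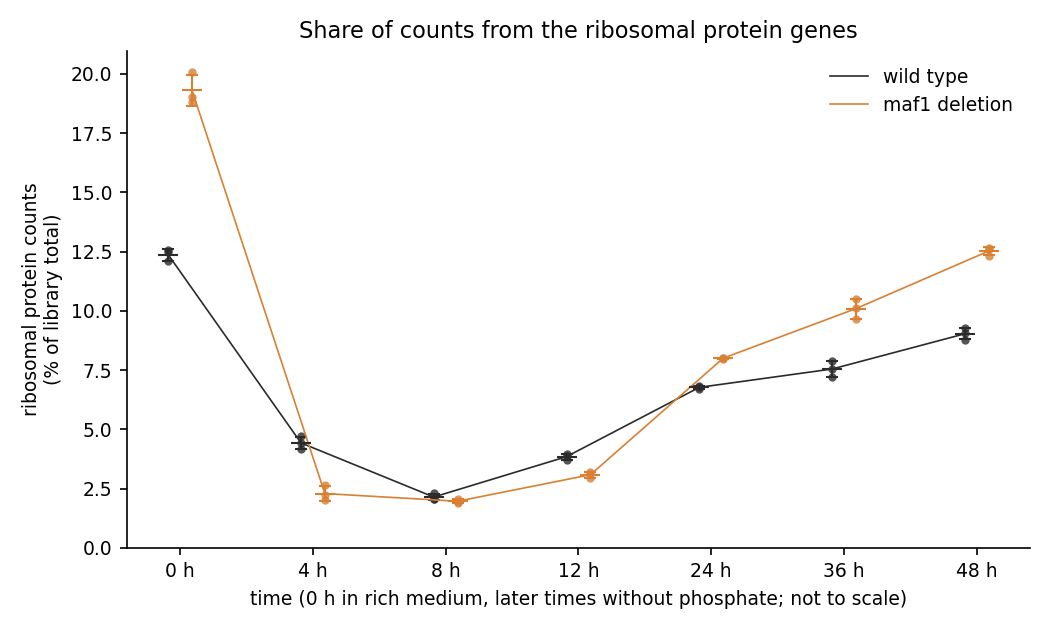
Share of each library's counts that came from 142 cytoplasmic ribosomal protein genes (percent, vertical axis) at each time (horizontal axis, not to scale), with points for libraries and bars for the mean and SD (n = 3). The wild type lies at 2.14% at 8 h and 4.43% at 4 h, and the maf1 deletion at 1.97% and 2.29%.

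Among protein genes of the machinery that makes ribosomes, and of mitochondrial ribosomes, edgeR called no member. Of 119 tested genes for ribosome biogenesis, which process ribosomal RNA and assemble the subunits, none was called in either direction, and their median log2 change was 0.01. The same held for 60 genes for mitochondrial ribosomal proteins (median -0.01), 15 for RNA polymerase I (median -0.09) and 21 for RNA polymerase III and its factors (median -0.05). At an adjusted p under 0.05 without a fold minimum, edgeR placed 50 of the ribosome biogenesis genes higher and 41 lower, 15 and 22 of the mitochondrial ribosomal protein genes, 6 and 6 of the RNA polymerase I genes and 8 and 8 of the RNA polymerase III genes. Among 37 translation factors the median was -0.32. By adjusted p alone 32 were lower (86.5%, against 34.1% of all genes) and 5 higher (13.5%, against 35.9%). In each direction 1 gene was called (2.7%, against 6.21% of all genes higher and 3.28% lower). Without 8 h replicate 3, and with DESeq2 or its size factors, 3 were called lower. Before these changes, the gene called lower was tif512, for the elongation and termination factor eIF5A, with 317 ± 22.1 CPM at 8 h and 713 ± 17.5 CPM at 4 h (log2 change -1.17). The gene called higher was tif1102, for an eIF1A-like protein, with 93.2 ± 3.60 CPM at 8 h and 38.2 ± 0.296 CPM at 4 h (log2 change 1.29).

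Genes for phosphate acquisition, already abundant at 4 h, were higher at 8 h in 6 of 8 cases by edgeR's adjusted p alone, and lower in 1. Those shares are 75.0% and 12.5%, against 35.9% and 34.1% of all genes. Of these 8 genes, 3 were called higher (37.5%, against 6.21% of all genes), none was lower, and the median log2 change was 0.87. The gene SPBPB2B2.06c, annotated as an extracellular 5'-nucleotidase, which frees phosphate from nucleotides outside the cell, had 2641, 2695 and 2534 CPM at 8 h, against 574, 642 and 492 CPM at 4 h. That is 4.61-fold, a log2 change of 2.20 ± 0.14 (SE; adjusted p = 9.94e-16). The glycerophosphodiester carrier gene tgp1 had 1925, 1813 and 1842 CPM at 8 h, against 895, 902 and 848 CPM at 4 h (log2 change 1.08, adjusted p = 3.12e-15), and the phosphate carrier gene pho841 had 1023 ± 67.5 CPM at 8 h and 482 ± 33.00 CPM at 4 h (log2 change 1.09).

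The most abundant of the phosphate genes was pho1, for the secreted acid phosphatase, with 25692, 26765 and 25983 CPM at 8 h, against 14481, 14514 and 13378 CPM at 4 h. Its groups did not overlap and its adjusted p was 6.27e-12, but its log2 change of 0.89 is under the 2-fold minimum. The high-affinity phosphate transporter gene pho84 had 4241 ± 87.3 CPM at 8 h and 3277 ± 109 CPM at 4 h (log2 change 0.37) and the annotated 5'-nucleotidase gene SPAC1039.02 had 5663 ± 152 CPM at 8 h and 3158 ± 87.8 CPM at 4 h (log2 change 0.84). For gde1, which encodes a glycerophosphodiesterase, the log2 change was 0.09, and for pho7, the activator of the regulon, it was -0.30. In time order from 0 to 48 h, pho1 averaged 62.1, 14124, 26146, 30721, 27529, 25691 and 27878 CPM and SPBPB2B2.06c 0.111, 569, 2624, 3575, 3069, 1919 and 1474 CPM. The 9 tested genes of inositol pyrophosphate and polyphosphate metabolism, whose products tie phosphate level to the regulon and store phosphate, held no called gene (median 0.00). By edgeR's adjusted p alone 2 were higher (22.2%, against 35.9% of all genes) and 3 lower (33.3%, against 34.1%).

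A single glycolytic gene rose to near the level of pho1. The gene gpd3, 1 of the genes for glyceraldehyde 3-phosphate dehydrogenase, which adds inorganic phosphate to a triose phosphate, had 22139.8, 22769 and 22279.8 CPM at 8 h, against 5732, 6018 and 5370.3 CPM at 4 h. Its log2 change was 1.97 ± 0.11 (SE; adjusted p = 3.17e-17). Together, pho1 and gpd3 took 5.01% ± 0.0927 of all counts at 8 h and 2.08% ± 0.0771 at 4 h (SD, n = 3 each), a sum put together after the values of both were seen. In time order from 0 to 48 h, gpd3 averaged 306, 5707, 22396, 23337, 25393, 27329 and 20777 CPM. None of the other 26 genes of glycolysis and fermentation was called, and the median of the list was 0.14.

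**Figure D3:**
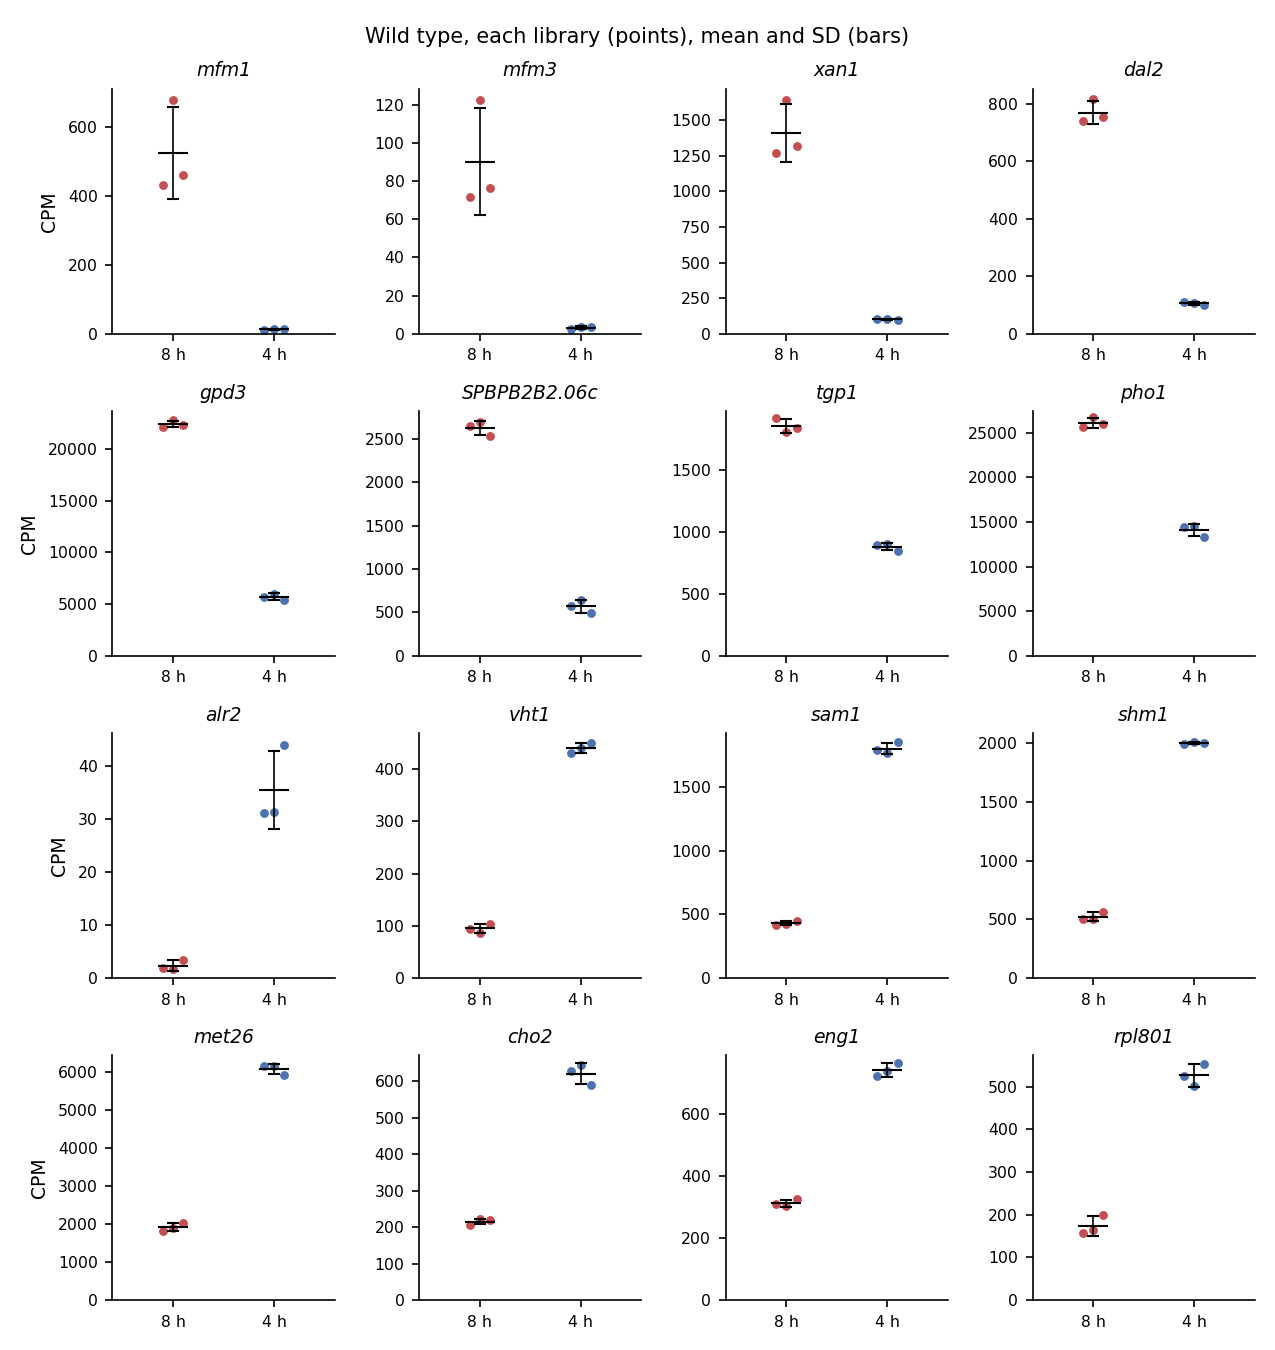
CPM of 16 genes in each wild-type library at 8 h (red) and 4 h (blue), with the mean and SD (n = 3); each panel has its own axis from 0. No panel shows overlap between the 2 times, which the naming rule required of the largest rises and falls. In mfm1, mfm3 and xan1, replicate 2 at 8 h lies above the other replicates.

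Among the largest rises were 3 genes for the breakdown of purines, a route that frees nitrogen from them, grouped here after their values were seen. The gene xan1, for the dioxygenase that turns xanthine into uric acid, had 1272, 1643 and 1317 CPM at 8 h, against 101, 101 and 99.6 CPM at 4 h, or 14.04-fold (log2 change 3.81 ± 0.12, SE; adjusted p = 7.48e-24). The allantoicase gene dal2 had 739, 816 and 753 CPM at 8 h, against 110.1, 108 and 98.9 CPM at 4 h (log2 change 2.86, adjusted p = 3.62e-24), and dal1, for the next enzyme of the route, a ureidoglycolate hydrolase, had 56.1 ± 3.78 CPM at 8 h and 14.7 ± 1.28 CPM at 4 h (log2 change 1.93). In time order from 0 to 48 h, xan1 averaged 161, 100.4, 1411, 948, 726, 422 and 310.0 CPM and dal2 65.1, 106, 769, 451, 439, 400.1 and 371 CPM, so both were highest at 8 h.

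Also among the largest rises were genes of other kinds. The predicted hydrolase gene hhy1 had 382, 320.1 and 344 CPM at 8 h, against 42.5, 41.8 and 39.5 CPM at 4 h (log2 change 3.08, adjusted p = 4.00e-21). The aldose reductase family gene yak3 had 1633 ± 28.5 CPM at 8 h and 342 ± 16.4 CPM at 4 h (log2 change 2.26), the predicted spermidine carrier gene mfs1 had 1125 ± 51.2 CPM at 8 h and 258 ± 4.56 CPM at 4 h (log2 change 2.12), and cum1, which encodes a protein of the conserved fungal Con-6 family, had 165 ± 11.9 CPM at 8 h and 33.9 ± 4.70 CPM at 4 h (log2 change 2.28). All 4 were without overlap between the times, which the rule that named them required.

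The steepest rises among named genes were those of M-factor genes. The gene mfm1 had 432, 676 and 461 CPM at 8 h, against 12.1, 13.2 and 13.2 CPM at 4 h, or 40.7-fold, with a log2 change of 5.35 ± 0.19 (SE; adjusted p = 7.93e-23). For mfm3 the values were 71.8, 122 and 76.4 CPM at 8 h, against 2.45, 3.31 and 3.79 CPM at 4 h (log2 change 4.82 ± 0.26, SE; adjusted p = 6.74e-18). In both genes the replicate 2 library, the one with the fewest counts, was the highest at 8 h, yet the lowest 8 h value was many times the highest 4 h value. The gene mfm2, which encodes the same pheromone and was the most abundant of the 3, was called with a log2 change of 1.12. All 3 genes encode the same mature peptide, and whether reads of such copies were kept apart in counting is not given in the sources used here. In time order from 0 to 48 h, mfm1 averaged 0.611, 12.9, 523, 1449, 1489.9, 1218 and 481 CPM, still higher at 12 h than at 8 h.

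Of 21 tested pheromone genes, 5 were called higher (23.8%, against 6.21% of all genes) and none lower, with a median log2 change of 0.67. The other two were mam2, for the P-factor receptor of h- cells, with 166 ± 15.6 CPM at 8 h and 61.1 ± 3.88 CPM at 4 h (log2 change 1.44), and dni2, for a membrane protein of cell fusion, with 16.6 ± 1.27 CPM at 8 h and 6.22 ± 0.791 CPM at 4 h (log2 change 1.41).

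The 56 listed regulators of sexual differentiation moved both ways, with 7 called higher (12.5%, against 6.21% of all genes) and 5 lower (8.93%, against 3.28%) and a median of 0.28. Higher were hry1, a predicted cation-binding protein gene, with 25.5 ± 3.25 CPM at 8 h and 5.32 ± 2.58 CPM at 4 h (log2 change 2.27), the meiotic noncoding RNA sme2 with 32.2 ± 1.10 CPM at 8 h and 9.94 ± 0.920 CPM at 4 h (log2 change 1.70) and the meiotic kinase gene mek1 with 12.98 ± 1.19 CPM at 8 h and 5.23 ± 0.230 CPM at 4 h (log2 change 1.30). The 3 largest falls of the list were in other meiotic genes: spo6, for the regulatory subunit of a meiotic kinase, had 1.71 ± 0.549 CPM at 8 h and 10.4 ± 0.791 CPM at 4 h (log2 change -2.58), meu6 had 3.62 ± 0.968 CPM at 8 h and 15.3 ± 1.55 CPM at 4 h (log2 change -2.05) and mde2 had 0.325 ± 0.289 CPM at 8 h and 1.01 ± 0.148 CPM at 4 h (log2 change -1.71). The call on mde2 rests on 17 counts at 8 h and 62 at 4 h, and its adjusted p was 0.0782 with DESeq2, 0.166 without 8 h replicate 1 and 0.0686 without 4 h replicate 3. Named after its values were seen, mei2, the switch gene of meiosis, had 1047 ± 54.96 CPM at 8 h and 496 ± 28.6 CPM at 4 h (log2 change 1.08). The 94 tested genes named for upregulation in meiosis had 8 called higher (8.51%, near the 6.21% of all genes) and none lower (median 0.09). Among the 8 were mug128 with 2.58 ± 0.788 CPM at 8 h and 0.617 ± 0.109 CPM at 4 h (log2 change 2.07), mug45 (1.31) and mug65 (1.24).

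Several of the large falls were in genes of the methyl cycle and of 1-carbon supply, a grouping made after their values were seen. The gene sam1, for S-adenosylmethionine synthetase, which makes the cell's methyl donor, had 419.8, 427 and 452 CPM at 8 h, against 1791, 1766 and 1851 CPM at 4 h (log2 change -2.06 ± 0.07, SE; adjusted p = 7.93e-23). The gene shm1, for a serine hydroxymethyltransferase, which moves a carbon from serine to folate, had 505, 502 and 565 CPM at 8 h, against 1995, 2009.6 and 2006 CPM at 4 h (log2 change -1.93). For met26, whose product makes methionine from homocysteine, the values were 1815, 1898 and 2020.2 CPM at 8 h, against 6140.3, 6157 and 5908 CPM at 4 h (log2 change -1.67). All 3 are abundant transcripts, and in each the groups lie far apart. The methylenetetrahydrofolate reductase gene met9, which feeds that step, had 72.9 ± 4.72 CPM at 8 h and 156 ± 2.95 CPM at 4 h (log2 change -1.10). The gene cho2, for the enzyme that spends S-adenosylmethionine to methylate phosphatidylethanolamine, had 216 ± 7.60 CPM at 8 h and 621 ± 27.9 CPM at 4 h (log2 change -1.53).

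These genes stand in 3 different lists, in which few other members were called. Of 35 tested genes for purine, pyrimidine and 1-carbon metabolism, sam1, shm1 and met9 were the 3 called lower (8.57%, against 3.28% of all genes). None was higher (median 0.10). Of 69 genes for amino acid biosynthesis, met26, met9 and lys3 (-1.10), a lysine gene, were called lower (4.35%, against 3.28% of all genes) and none was higher. The median was -0.35, with 53 lower (76.8%, against 34.1% of all genes) and 5 higher (7.25%, against 35.9%) by adjusted p alone. Of 35 tested genes of phospholipid and fatty acid metabolism, cho2 alone was called lower (2.86%, near the 3.28% of all genes), with a median of -0.11. Scaled by DESeq2 size factors, by library size or by protein-coding genes alone, 2 genes of this list were called lower, as they were without 8 h replicate 2 or 4 h replicate 3.

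The steepest fall named by the rule was that of alr2. This gene, for a predicted alanine racemase, had 1.88, 1.72 and 3.45 CPM at 8 h, against 31.1, 31.3 and 43.95 CPM at 4 h (log2 change -3.87 ± 0.24, SE; adjusted p = 1.33e-16). The biotin carrier gene vht1 had 94.6, 86.9 and 104 CPM at 8 h, against 431, 440.2 and 450.3 CPM at 4 h (log2 change -2.21, adjusted p = 1.59e-19). In both genes every 8 h library lay below every 4 h library, which the naming rule also required.

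Genes of cell separation and the cell cycle were mostly lower by less than 2-fold. Of 42 tested genes for septation and cell separation, 3 were called lower (7.14%, against 3.28% of all genes), none was higher, and the median was -0.36. By adjusted p alone 27 were lower (64.3%, against 34.1% of all genes) and 8 higher (19.0%, against 35.9%). The gene eng1, for the glucanase that dissolves the septum between daughter cells, had 310.3, 303 and 326 CPM at 8 h, against 722, 740.0 and 767 CPM at 4 h (log2 change -1.25, adjusted p = 8.24e-15). The cell surface protein genes adg2 and adg1 had log2 changes of -1.18 and -1.12. Among 67 genes of the G1 to S wave and DNA replication the median was -0.31, and 42 were lower (62.7%) and 13 higher (19.4%) by adjusted p alone. The kinase gene mik1, whose product restrains entry into mitosis, was called lower with 16.1, 17.4 and 17.4 CPM at 8 h, against 46.7, 43.7 and 45.6 CPM at 4 h (log2 change -1.42). Called higher were rev7, for a subunit of a translesion polymerase, with 85.3 ± 1.51 CPM at 8 h and 27.4 ± 0.568 CPM at 4 h (log2 change 1.64), and spd1, for an inhibitor of ribonucleotide reductase, with 606 ± 23.9 CPM at 8 h and 278 ± 12.9 CPM at 4 h (log2 change 1.12). Of 51 mitosis genes, slp1, which activates the anaphase-promoting complex, was the 1 called gene, with 211 ± 8.07 CPM at 8 h and 441 ± 4.07 CPM at 4 h (log2 change -1.07). The 11 histone genes held no called member (median -0.16, 6 lower and 3 higher by adjusted p alone), and of 46 genes for cell wall synthesis eng1 was called lower and chs1, a chitin synthase gene, higher (1.05). In the G1 to S, mitosis and cell wall lists, 2.99%, 0.0% and 2.17% were called higher, against 6.21% of all genes. Called lower were 1.49%, 1.96% and 2.17%, against 3.28%. Without 8 h replicate 3, 2 genes each of the G1 to S and cell wall lists were called lower, as were 2 of the G1 to S list without 8 h replicate 2.

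A few stress genes rose. Of 54 tested genes of the core stress response, 5 were called higher (9.26%, against 6.21% of all genes) and none lower, with a median of 0.14. The metallothionein gene zym1, which binds zinc and other metals, had 1395 ± 84.8 CPM at 8 h and 404 ± 1.85 CPM at 4 h (log2 change 1.79), the sulfiredoxin gene srx1, which repairs oxidised peroxiredoxin, had 65.3 ± 4.71 CPM at 8 h and 24.7 ± 1.68 CPM at 4 h (log2 change 1.41), and the small heat shock protein gene hsp16 had 1188 ± 118 CPM at 8 h and 467 ± 35.1 CPM at 4 h (log2 change 1.35). Among 40 chaperone and related genes, hsp3105 (1.79), hsp16 and hsp3101 (1.15) were called higher, and bip1, the main chaperone of the endoplasmic reticulum, was called lower with 572 ± 8.52 CPM at 8 h and 1176 ± 26.6 CPM at 4 h (log2 change -1.04). The median of these 40 was -0.27, and 7.5% were called higher and 2.5% lower, near the 6.21% and 3.28% of all genes. In metal homeostasis, 3 of 39 genes were called higher (7.69%, near the 6.21% of all genes), among them the siderophore-iron carrier genes str3, with 24.7 ± 5.41 CPM at 8 h and 6.47 ± 0.902 CPM at 4 h (log2 change 1.93), and str1, with 80.2 ± 4.37 CPM at 8 h and 31.8 ± 4.68 CPM at 4 h (log2 change 1.33). Without 8 h replicate 1, 6 metal genes were called higher.

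Autophagy genes were mostly higher and proteasome genes mostly lower, nearly all by less than 2-fold. Over all tested genes, 35.9% were higher and 34.1% lower by adjusted p alone. Of 37 autophagy genes, 27 were higher (73.0%) and 1 lower by edgeR's adjusted p alone, with a median of 0.31, and 2 were called. They were atg12, for the ubiquitin-like modifier of autophagosome formation, with 28.4 ± 2.05 CPM at 8 h and 11.3 ± 0.310 CPM at 4 h (log2 change 1.33), and atg43, for a receptor of mitochondrial autophagy, with 463 ± 8.19 CPM at 8 h and 206 ± 7.36 CPM at 4 h (log2 change 1.17). Of 39 proteasome genes none was called, and 33 were lower (84.6%) and 2 higher by adjusted p alone (median -0.25). None of 32 sterol synthesis genes was called, with 25 lower and 1 higher by adjusted p alone (median -0.30).

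Single carbon genes changed by 2-fold or more, and respiratory chain genes were mostly higher by less than that. The gene fbp1, for fructose-1,6-bisphosphatase, an enzyme of sugar synthesis repressed by glucose, had 243, 223 and 201 CPM at 8 h, against 62.8, 68.5 and 67.6 CPM at 4 h (log2 change 1.75, adjusted p = 3.35e-14). Of 30 hexose transport and glucose-repressed genes, agl1 (1.17) and mel1 (1.01), for enzymes that split maltose and melibiose, were also called higher and the galactokinase gene gal1 (-1.03) lower. These 3 calls end when a single library is left out: agl1 had 0.89 without 8 h replicate 2, mel1 0.95 without 8 h replicate 1, and gal1 -0.99 without 4 h replicate 1. Of 63 tested genes of the respiratory chain and ATP synthase the median was 0.22, with 42 higher (66.7%, against 35.9% of all genes) and 5 lower by adjusted p alone, and the 1 called gene, cox7 (1.001), was under 2-fold in 11 of the alternative settings. The 23 genes of the citric acid cycle held none (median 0.10, 12 higher and 7 lower by adjusted p alone).

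Of 36 genes of the nitrogen-starvation response and nitrogen transport, 2 were called higher (5.56%) and 1 lower (2.78%), with a median of -0.11. Both shares are near the 6.21% and 3.28% of all genes. Without 8 h replicate 3, 2 were called lower. The oligopeptide carrier gene isp4 had 634 ± 18.6 CPM at 8 h and 245 ± 20.1 CPM at 4 h (log2 change 1.37), the vacuolar amino acid carrier gene fnx1 had 176 ± 11.8 CPM at 8 h and 74.2 ± 0.280 CPM at 4 h (log2 change 1.24) and the amino acid permease gene isp5 had 61.6 ± 9.11 CPM at 8 h and 151 ± 9.87 CPM at 4 h (log2 change -1.29). Neither the 9 thiamine-repressed genes (median 0.36) nor the 20 flocculin genes (median -0.03) held a gene called by edgeR. By adjusted p alone, 6 thiamine-repressed genes were higher (66.7%) and 2 lower (22.2%). The flocculin genes had 5 and 5 (25.0% each), and the shares of all genes were 35.9% and 34.1%.

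**Figure D4:**
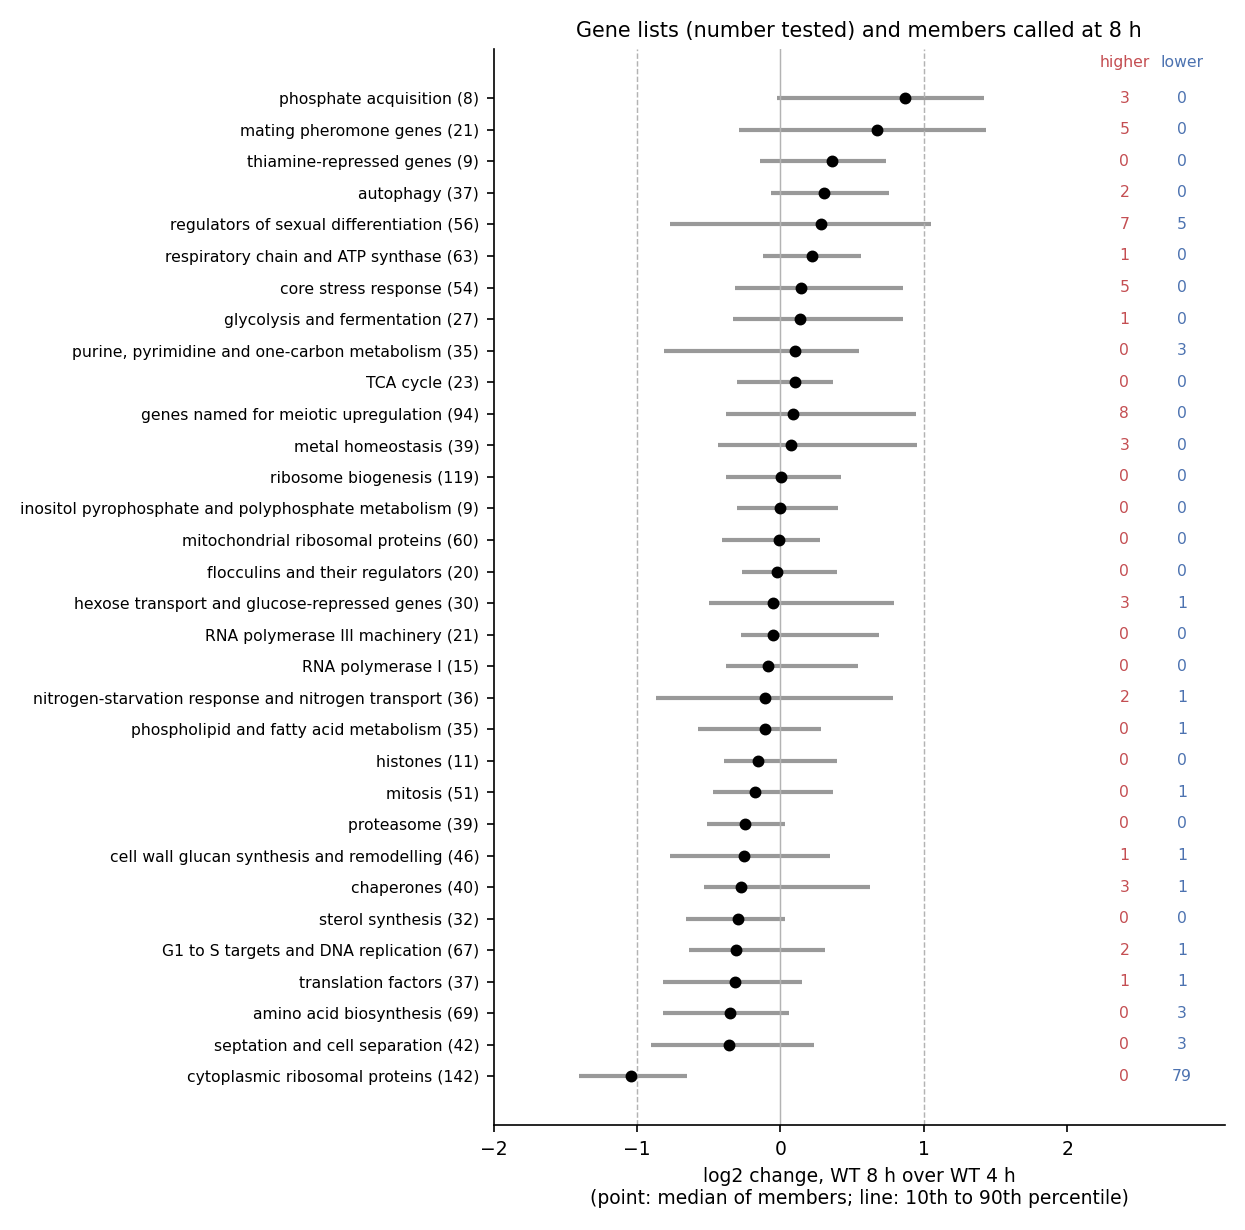
Log2 change at 8 h over 4 h in the wild type (horizontal axis) for the tested members of 32 gene lists, with points for the median, lines from the 10th to the 90th percentile and the numbers of members called higher and lower at the right. The phosphate acquisition list has the highest median, 0.87, and the ribosomal protein list the lowest, -1.04.

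By number, noncoding RNAs (ncRNAs) were the most frequent kind of gene among those called higher. Of 1263 tested ncRNA genes, 207 were called higher (16.4%) and 84 lower (6.65%), with a median log2 change of 0.30, whereas of 5050 protein-coding genes 157 were higher (3.11%) and 129 lower (2.55%), with a median of -0.03. Among the 482 ncRNA genes with at least 10 CPM in the higher group, 85 were higher (17.6%) and 19 lower (3.94%), against 4.17% and 2.58% of all 5305 tested genes at that level. As a share of library counts, ncRNA genes took 1.90% ± 0.0330 at 8 h and 1.55% ± 0.0375 at 4 h (SD, n = 3 each; exact two-sided permutation p = 0.1, the lowest possible). Genes of stable RNAs, which poly(A) selection is meant to leave out, were also called higher. They were 16 of 36 tested rRNA genes (44.4%), 8 of 43 snoRNA genes (18.6%, with 1 lower) and 2 of 5 snRNA genes. Of 94 tRNA genes, 9 were called higher (9.57%, near the 6.21% of all genes), and the median of the 94 was 0.0. The 9 called tRNA genes hold few reads, with 355 counts at 8 h and 91 at 4 h. Of 23 pseudogenes 5 were higher (21.7%). Nearly all rRNA calls were copies of the 5S gene, 15 of 28 (median 1.33). The 8 genes for 18S, 28S and 5.8S rRNA held 1 call (median -0.55). Copies of the 5S gene are near-identical, so reads may be split among them, and the 16 called genes hold few reads, with 1118 counts at 8 h and 366 at 4 h. All rRNA genes together took 0.00371% ± 0.000388 of counts at 8 h and 0.00256% ± 0.000652 at 4 h in the wild type. In the deletion they took 0.00995% ± 0.000803 at 8 h and 0.0132% ± 0.00255 at 4 h (SD, n = 3 each). Gene by gene, 14 of the 36 tested rRNA genes were called higher and 1 lower in the deletion's step (median 0.87). The difference between the strains' steps was called for 1 of the 36. Of the 94 tested tRNA genes, 31 were called higher in the deletion's step and none lower (median 1.05). Their median difference between the steps, wild type minus deletion, was -0.98, and it was called for 1 gene. What part carry-over of RNA without poly(A) has in the ncRNA counts was not tested.

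The 615 ncRNAs named as antisense to a gene were called higher in 57 cases (9.27%) and lower in 72 (11.7%), with a median of 0.05. The other 648 were higher in 150 (23.1%) and lower in 12 (1.85%), with a median of 0.52. Of all tested genes, 6.21% were higher and 3.28% lower. The library kit records strand, but the strand setting used in counting is not given in the sources used here, so reads of an antisense RNA and of its partner gene may not be cleanly apart.

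The rule for named genes took in 4 antisense RNAs that rose and 4 that fell. Highest was ubp16-antisense-1 with 93.4, 80.1 and 83.2 CPM at 8 h, against 9.30, 7.46 and 6.64 CPM at 4 h (log2 change 3.45, adjusted p = 2.19e-25). Next came cpc2-antisense-1 with 23.00 ± 2.85 CPM at 8 h and 3.13 ± 0.747 CPM at 4 h, SPAC9E9.17c-antisense-1 with 29.05 ± 2.11 CPM at 8 h and 4.78 ± 0.354 CPM at 4 h and SPBC887.16-antisense-1 with 21.3 ± 3.71 CPM at 8 h and 4.47 ± 0.555 CPM at 4 h. Lowest was cao2-antisense-1 with 2.12, 2.07 and 3.02 CPM at 8 h, against 24.4, 22.6 and 23.8 CPM at 4 h (log2 change -3.27, adjusted p = 1.35e-10). After it came SPAC57A7.06-antisense-1 with 6.78 ± 0.916 CPM at 8 h and 30.3 ± 0.549 CPM at 4 h, cph1-antisense-1 with 8.25 ± 1.95 CPM at 8 h and 36.1 ± 3.16 CPM at 4 h and vps13a-antisense-2 with 3.79 ± 0.301 CPM at 8 h and 12.1 ± 0.811 CPM at 4 h. The intergenic RNA fbp1-ot3, annotated as possibly an alternative untranslated region, had 2.85 ± 0.719 CPM at 8 h and 10.4 ± 0.496 CPM at 4 h (log2 change -1.85), while fbp1 itself rose.

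Fewer genes changed over the next 4 h, and ribosomal protein genes were higher again. At 12 h against 8 h in the wild type, 114 genes were higher (1.75%) and 77 lower (1.18%), together 2.93%. This comparison shares the 8 h libraries with the step described here, so a library that is high or low at 8 h enters both with opposite sign. Of the 405 genes higher at 8 h over 4 h, 372 were not called at 12 h over 8 h, 17 were higher and 16 lower, with a median log2 change of 0.17. Of the 214 genes lower at 8 h, 149 were not called, 48 were higher and 17 lower. Of the 142 ribosomal protein genes, 77 were higher at 12 h than at 8 h and none was lower, with a median of 1.03. For single genes, the log2 change at 12 h over 8 h was 1.20 for rpl1002, 1.47 for mfm1, 1.49 for mfm3, -0.57 for xan1, -0.77 for dal2, 0.06 for gpd3, 0.45 for SPBPB2B2.06c, -0.44 for sam1 and 0.44 for shm1.

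In the maf1 deletion strain, 361 genes were higher at 8 h than at 4 h (5.54%) and 162 lower (2.48%), together 8.02%. Of the wild type's 405 higher genes 201 were also called higher in the deletion, which is 49.6% of the wild-type list and 55.7% of the deletion's. Of its 214 lower genes 72 were called lower there, 33.6% of the wild-type list and 44.4% of the deletion's, and 1 gene was called in the opposite direction. A call in 1 strain alone does not show a difference, so the difference of the steps, wild type minus deletion, was tested in the same fit. It was called for 154 genes (2.36%), of which 82 had the higher change in the wild type (1.26%) and 72 the lower (1.1%). That balance turns under other scalings. There were 72 higher and 89 lower by DESeq2's size factors, 71 and 89 by TMM over protein-coding genes, and 75 and 95 with DESeq2. Without 4 h replicate 3 of the deletion the counts were 87 and 110. Among the genes called in the wild-type step, 40 of 405 higher (9.88%) and 35 of 214 lower (16.4%) also had a called difference. The difference uses the same wild-type libraries by which these genes were called, so some excess over the 2.36% of all genes is built in. The strains differ in maf1, mating type and library depth at once (33249827 to 42808200 counts in the deletion), and these cannot be told apart.

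Ribosomal protein genes were 26 of the 72 genes with a lower change in the wild type. Of the 142, 26 had a called difference, all of them lower in the wild type, with a median difference of -0.84. Among all tested genes, 1.1% had a lower difference called. In the deletion strain none of the 142 was called, and the median log2 change was -0.19. Their share of counts in the deletion was 1.97% ± 0.0913 at 8 h and 2.29% ± 0.321 at 4 h (SD, n = 3 each), against the wild type's 2.14% at 8 h and 4.43% at 4 h given above. The means of the strains thus lie close together at 8 h and apart at 4 h. The deletion's 3 libraries at 4 h spread from 2.004% to 2.64%, and the count of 26 moved with them, to 13 without 4 h replicate 1 of the deletion and 62 without its replicate 3. Without wild-type 8 h replicate 3 it was 43, and without wild-type 4 h replicate 3 it was 16. Examples are rps902, for protein S9, with 106 ± 7.75 CPM at 8 h and 282 ± 8.47 CPM at 4 h in the wild type and 97.8 CPM at 8 h and 111 CPM at 4 h in the deletion (difference of log2 changes -1.22, adjusted p = 4.04e-11), and rpl31, for protein L31, with 150.4 ± 15.1 CPM at 8 h and 363 ± 26.9 CPM at 4 h in the wild type and 178 CPM at 8 h and 192 CPM at 4 h in the deletion (difference -1.16).

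Among the purine and 1-carbon genes, the means of dal2 and shm1 also lay closer between strains at 8 h than at 4 h. In the deletion, dal2 had 716, 831 and 715 CPM at 8 h, against 339, 274 and 215 CPM at 4 h, a log2 change of 1.45 against the wild type's 2.86 (difference 1.41 ± 0.12, SE; adjusted p = 4.60e-11). The wild type's own means were 769 ± 40.8 CPM at 8 h and 106 ± 6.03 CPM at 4 h. For shm1 the deletion averaged 449.9 CPM at 8 h and 859 CPM at 4 h (difference -1.001), and the difference was under 2-fold in 9 of the alternative settings. The gene xan1 had 620.3, 823 and 663 CPM at 8 h, against 264, 232 and 177 CPM at 4 h in the deletion (log2 change 1.65, difference 2.17, adjusted p = 1.54e-12), so here the strains also stood apart at 8 h. Levels of the strains at 1 time were not tested against each other.

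Of the named genes, the M-factor genes mfm3 and mfm1 had the largest differences, in strains of opposite mating type. In the h+ deletion, mfm1 averaged 19.95 CPM at 8 h and 4.57 CPM at 4 h, mfm3 1.82 CPM at 8 h and 1.28 CPM at 4 h and mam2 4.47 CPM at 8 h and 5.22 CPM at 4 h, all far below the wild type at 8 h. The differences of the steps were 4.32 for mfm3, 3.22 for mfm1 and 1.66 for mam2 (adjusted p = 3.51e-07, 2.50e-10 and 3.48e-04). Phosphate genes did not reach the threshold of a difference, with 0.76 for SPBPB2B2.06c, 0.31 for tgp1, 0.02 for pho1 and 0.09 for pho84, and gpd3 had 0.44. The log2 changes in the deletion strain were 1.45, 0.77, 0.87, 0.28 and 1.54 for these 5 genes in the same order.

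**Figure D5:**
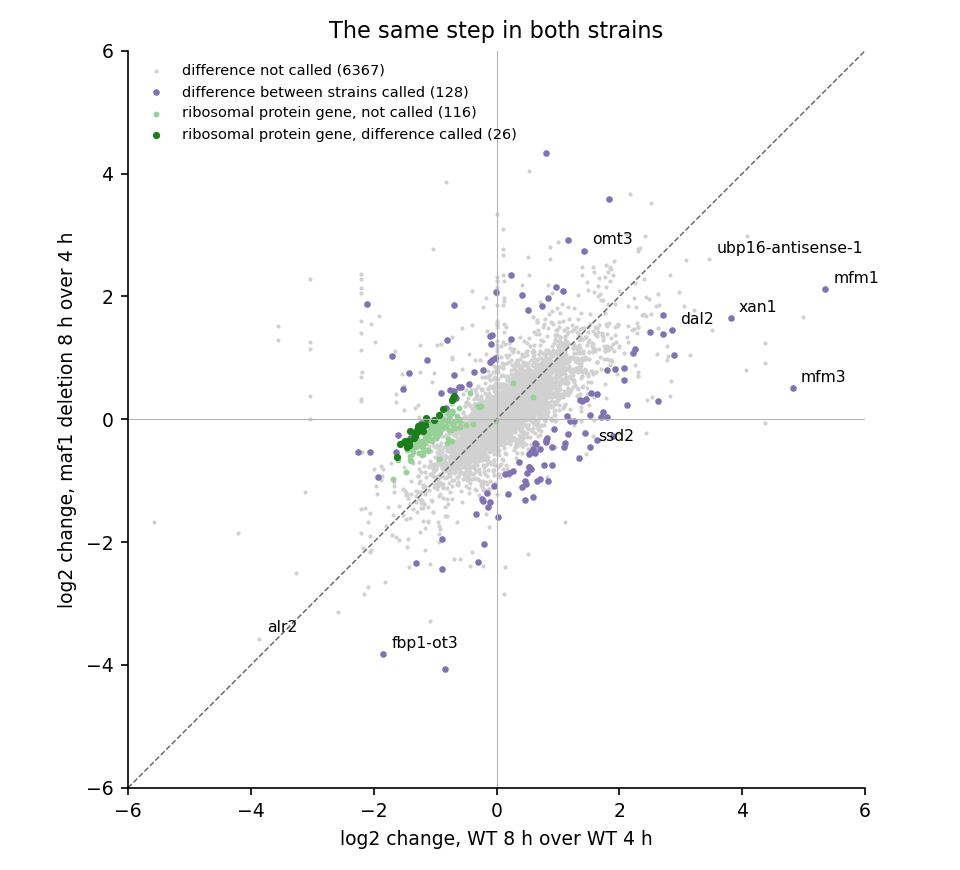
Log2 change at 8 h over 4 h in the maf1 deletion (vertical axis) against that in the wild type (horizontal axis) for the tested genes, with the dashed line where both are equal. Ribosomal protein genes (green, dark where the difference was called) lie above the line with a median difference of -0.84, wild type minus deletion, and mfm1, mfm3 and xan1 lie below it.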

How the data were processed

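Per the labels' protocols, poly(A) RNA was made into stranded, paired-end TruSeq libraries and read on a NovaSeq instrument. For the 42 libraries the authors deposited a single table of gene counts. The submitters' processing notes list HTSeq 0.10.0, HISAT2 2.1.0, DESeq2, SAMtools and the build ASM294v2 without saying what each was used for. The deposited values are whole except for 0.5, which stands in 6.51% of cells in place of 0. They were treated as estimated counts, as deposited, and rounded, 0.5 to 0. The log2 fold changes that the authors deposited in their table of WT 8 h against 0 h were not analysed; that table served for gene names, with a reference gene table of another assembly (ASM294v3), so no coordinates or sequences are given. All 42 columns were mapped to samples by name.

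Genes were filtered with filterByExpr and tested in 1 quasi-likelihood model (edgeR 4.0.16, R 4.3.3) over all 14 groups, scaled by TMM, with 28 residual degrees of freedom. Counts per library limit precision through counting error, and replicates differed by more than that, by chi-square tests of their counts (2.84 to 6.46 per degree of freedom). Standard errors of log2 changes come from the model, and the program was tested on simulated data. Named were the 15 largest rises and falls with at least 10 CPM in the higher group and no overlap, up to 3 called genes per direction in each of 32 gene lists, and called genes with the largest strain differences. The comparison, these lists and the rule were chosen with earlier results of these data known. For each 8 h library, deviations from the group mean correlated best with those of the same-numbered 4 h library (r = 0.127, 0.134 and 0.192). These correlations are weak and were not tested, so replicate numbers may or may not pair the samples. Alternatives covered scaling, filters, DESeq2 1.42.0, the samples in the fit, the replicate block, left-out libraries and the fold minimum.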

Additional observations from a re-analysis of the deposited data

Results flagged for a closer look

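For 17 named genes the step from 4 to 8 h differed between the wild type and the maf1 deletion, by edgeR's test of the difference itself (adjusted p under 0.05 and at least 2-fold). Each value below is the log2 change in the wild type minus that in the deletion. Larger rises in the wild type were those of the M-cell genes mfm3 (4.32), mfm1 (3.22) and mam2 (1.66), in strains of opposite mating type. The purine-breakdown genes xan1 (2.17), dal2 (1.41) and dal1 (1.11), the aldose reductase gene yak3 (1.11) and the antisense RNA cpc2-antisense-1 (1.84) also had the higher change in the wild type. The succinate-semialdehyde dehydrogenase gene ssd2 (1.97) had 125 ± 13.4 CPM at 8 h and 43.4 ± 7.04 CPM at 4 h in the wild type and 127 CPM at 8 h and 173 CPM at 4 h in the deletion, changes of opposite sign. For the intergenic RNA fbp1-ot3 (1.97) the fall was smaller in the wild type.

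Larger falls in the wild type were those of the 1-carbon gene shm1 (-1.001) and of the ribosomal protein genes rps1401 (-1.01), rps2302 (-1.16), rpl31 (-1.16), rpl803 (-1.16) and rps902 (-1.22). The intergenic RNA omt3 (-1.32) rose less in the wild type, with 184 ± 7.53 CPM at 8 h and 68.7 ± 2.78 CPM at 4 h there and 108 CPM at 8 h and 16.1 CPM at 4 h in the deletion. The strains differ in maf1, mating type and depth at once, and these cannot be told apart.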

How the results depend on the processing

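The fold minimum set the counts more than any other choice. With adjusted p alone, and with at least 1.5-fold, the wild-type step had 2341 and 954 genes higher and 2221 and 592 lower, 12 h over 8 h had 1598 and 284 higher and 1372 and 215 lower, and the deletion's step had 2291 and 834 higher and 2214 and 475 lower. The difference between strains had 1054 and 252 higher and 1011 and 270 lower. Among ribosomal protein genes, 139 and 133 were then lower in the step, 141 and 133 higher at 12 h over 8 h, and 139 and 126 lower in the difference. Other scalings, filters, fits and DESeq2 gave 364 to 408 higher and 212 to 247 lower genes in the wild-type step, and leaving out 1 library gave 384 to 419 and 202 to 247. DESeq2's size factors moved the higher share of calls in the step to 59.7%, against 65.4%. Leaving out 1 library gave 56 to 110 genes with a lower difference and 13 to 62 such ribosomal protein genes. With the replicate block, 378 genes were higher and 221 lower, against 379 and 219 in the same fit of 6 libraries without it, and the paired fit gave 221 in place of 214 lower genes and changed no named call but that of cox7 (0.998), which missed 2-fold (0.999) without the block too. With the block, 12 h over 8 h had 112 higher and 80 lower genes, the deletion's step 319 and 146 and the difference 83 and 78. Of 80 named genes, 75 kept call and direction under every alternative, and agl1, mel1, gal1, mde2 and cox7 did not. Of 17 strain differences 14 did, and yak3, shm1 and rps1401 did not. In the cell wall list and in the G1 to S list, 2 genes in place of 1 were called lower in 6 settings each. None of these reversed, and the causes were not tested. Depth limits the low genes, such as mde2 with 17 counts at 8 h.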

Other observations

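The wtf genes, a family of spore-killing meiotic drivers and their suppressors, were mostly higher at 8 h. This set and those below were chosen after their values were seen, so the counts are descriptions with no test. Of 25 tested wtf genes, 15 were called higher (60%, against 6.21% of all genes) and none lower, with a median log2 change of 1.02. The largest change was that of wtf16, with 8.15, 9.30 and 8.03 CPM at 8 h, against 1.32, 1.79 and 2.26 CPM at 4 h (log2 change 2.25), and the lowest that of wtf11, with 27.7 ± 2.38 CPM at 8 h and 40.6 ± 1.51 CPM at 4 h (-0.55). Many wtf genes are near-identical, and how reads that map to several of them were counted is not given in the sources used here.

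Beyond xan1, dal2 and dal1, other genes annotated for purine breakdown and urea use were called higher, 7 of 18 in all (38.9%, against 6.21% of all genes) with none lower (median 0.30). The uricase gene uro1 had 227, 337 and 263 CPM at 8 h, against 81.7, 86.4 and 80.9 CPM at 4 h (log2 change 1.73). The purine carrier gene SPAC29B12.14c had 216 ± 16.7 CPM at 8 h and 59.2 ± 1.12 CPM at 4 h (log2 change 1.87), the urea carrier gene SPBC23G7.13c had 23.6 ± 5.03 CPM at 8 h and 7.74 ± 1.25 CPM at 4 h (1.59) and the purine nucleoside phosphorylase gene SPAC1805.16c had 170.0 ± 6.54 CPM at 8 h and 70.8 ± 2.21 CPM at 4 h (1.26). The urease gene ure2 (-0.20) and the guanine deaminase gene gud1 (-0.16) were not called.

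In 12 cases an antisense RNA and the gene it is named for were both called, in opposite directions in 6 and in the same direction in 6. Of 125 called antisense RNAs with a tested partner the partner was called in 9.6%, near the 8.03% of all 598 such pairs. Examples of opposite directions are cao2, where cao2-antisense-1 had a log2 change of -3.27 and cao2 one of 1.63, fnx1 (-2.21 and 1.24), mfs1 (-1.37 and 2.12), cpc2 (2.88 and -1.28) and rpl1002 (1.10 and -1.68). Examples of the same direction are alr2 (-1.41 and -3.87), SPAC9E9.17c (2.60 and 1.66) and SPBC887.16 (2.24 and 1.39). In each pair the antisense value comes first.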
